A study of Mus musculus with 12 samples.

Results

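The genes described here carry glucose into cells or catalyse steps of its breakdown to lactate, and each belongs to a family in which several isoforms do the same job in different tissues. They are the transporters Slc2a1, Slc2a3 and Slc2a4, the hexokinases Hk1 and Hk2, the phosphofructokinases Pfkl, Pfkm and Pfkp, the enolase Eno3 and the lactate dehydrogenase subunit Ldha. All probe sets whose platform annotation gives only 1 of these 10 symbols were taken, which gave 19 of the 22626 probe sets that are not array controls. Slc2a4, Hk2, Pfkm and Eno3 were counted as isoforms that muscle favours, with 5 probe sets, and the other 6 genes, with 14 probe sets, as isoforms of broader use. A further probe set lists Hk1 together with a ribosomal protein gene and was left out. The series holds 12 Affymetrix arrays of mouse RNA, with log2 expression values made by RMA, and asks what separates cultured keratinocytes from skin and newborn from older skin. Culture is represented by 5 arrays of primary keratinocytes from newborn mice, each from cells of 5 pooled mice kept in low Ca2+ medium for up to 3 days and never passaged. The strain given for culture replicates 1 and 2 is C57 DBA FVB mixed, and for replicates 3, 4 and 5 it is FVB. Skin is represented by 5 arrays of tissue from mice 30 days old, all C57 DBA FVB mixed, and by 2 arrays of newborn tissue, both FVB. Within skin, age and strain cannot be told apart. No gene was altered and no agent was given in any group, as far as the labels say. Nothing in them says that skin samples came from separate animals. The p-values thus rest on the spread among these arrays, which could be technical. Culture replicates 1 and 2, the only mixed cultures, were the closest pair of arrays, with an SD of 0.158 over the log2 differences of all probe sets. Replicates 2 and 3 and replicates 4 and 5 of 30-day skin, and both newborn arrays, followed at 0.170, 0.176 and 0.203. Whether such a pair is 1 sample measured again cannot be told from the labels, and each pair was also counted as 1 sample, as an alternative chosen after seeing the data.

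Glucose enters most cells through facilitative transporters, of which GLUT1, the product of Slc2a1, serves basal uptake in proliferating cells and is the main transporter of epidermis. GLUT4, the product of Slc2a4, is the transporter that insulin brings to the surface of muscle fibres and adipocytes. Hexokinase traps glucose by phosphorylation, phosphofructokinase commits it to glycolysis, enolase makes phosphoenolpyruvate near the end of the pathway, and lactate dehydrogenase reduces pyruvate to lactate. Vertebrates keep separate genes for the muscle forms of several of these enzymes. Whole skin contains the panniculus carnosus, a sheet of striated muscle beneath the dermis, together with fat, vessels and immune cells, whereas a keratinocyte culture holds mainly the epithelial cell.

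Promoter sequences from RefSeq on GRCm38.p6, running from 250 bases before to 50 bases after an annotated start, were available for 8 of the 10 genes, in 13 entries. Windows are printed for Slc2a1, Pfkl and Ldha, the members with the largest rises in culture against skin, and for Eno3, with the largest fall. Those of Pfkm, with the next largest fall, and of Hk1, Hk2 and Pfkp are not printed. In the Slc2a1 and Ldha windows, the capitals mark ACGTG, the core of the element bound by hypoxia-inducible factors, read on both strands, so that CACGT is its partner and CACGTG holds it on both strands. The Slc2a1 window is chr4:119108495-119108794 on the + strand, and the Ldha window shown is chr7:46845554-46845853 on the + strand.
Slc2a1: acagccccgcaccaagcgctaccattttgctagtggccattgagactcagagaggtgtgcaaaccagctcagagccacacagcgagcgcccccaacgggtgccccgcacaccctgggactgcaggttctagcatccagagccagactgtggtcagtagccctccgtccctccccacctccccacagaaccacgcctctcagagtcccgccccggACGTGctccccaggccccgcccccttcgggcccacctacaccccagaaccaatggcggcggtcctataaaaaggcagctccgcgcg
Ldha: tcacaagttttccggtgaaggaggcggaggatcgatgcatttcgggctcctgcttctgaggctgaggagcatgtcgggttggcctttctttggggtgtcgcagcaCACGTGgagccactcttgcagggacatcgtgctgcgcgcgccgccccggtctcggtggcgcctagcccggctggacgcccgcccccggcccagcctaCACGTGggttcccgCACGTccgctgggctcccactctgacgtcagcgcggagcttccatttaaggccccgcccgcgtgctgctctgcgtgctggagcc
The Slc2a1 window held the letters at 1 place and this Ldha window at 3 places, 2 of them CACGTG. Ldha has another annotated start, with the window chr7:46846832-46847131 on the + strand, which held them at 0 places and is not printed. The Pfkl window, chr10:78009758-78010057 on the - strand, held them nowhere. In the Eno3 window, chr11:70656926-70657225 on the + strand, the capitals mark CAGCTG, the letters of an E-box that myogenic factors bind, which reads the same on both strands.
Pfkl: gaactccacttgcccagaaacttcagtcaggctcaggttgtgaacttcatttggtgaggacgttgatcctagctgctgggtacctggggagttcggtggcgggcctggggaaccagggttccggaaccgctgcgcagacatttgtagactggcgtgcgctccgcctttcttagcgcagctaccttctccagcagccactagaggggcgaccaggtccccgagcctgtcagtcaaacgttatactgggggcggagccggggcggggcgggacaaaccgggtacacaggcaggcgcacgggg
Eno3: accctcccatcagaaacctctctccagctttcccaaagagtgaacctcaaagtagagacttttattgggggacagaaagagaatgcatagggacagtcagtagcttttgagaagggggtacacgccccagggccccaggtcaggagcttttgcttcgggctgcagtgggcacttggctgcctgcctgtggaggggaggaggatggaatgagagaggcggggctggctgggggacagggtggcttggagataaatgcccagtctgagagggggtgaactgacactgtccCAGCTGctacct
ACGTG occurred in 6 of the 13 windows, against 19.6% of all 32851 promoters of the same length. Besides Slc2a1 and Ldha, it was in the Hk2 window (2 places) and the Hk1 window chr10:62340372-62340671 (2 places). It was also in the Pfkm windows chr15:98092339-98092638 (2 places) and chr15:98108221-98108520 (1 place), and Pfkm was lower in culture. Windows of 1 gene are not independent, and the last of these overlaps another Pfkm window. CAGCTG occurred in 1 of the 13, in Eno3, against 16.3% of all promoters. GCGTG, the other form of the hypoxia core, was in 9 of the 13 and in 32.4% of all. It is not marked above, and every printed window, Pfkl included, and the other Ldha window held it. These are matches of letters and not evidence of binding, and a window without a match says only that these letters are not in it.

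The comparison of culture with skin split the family by isoform. Of the 5 probe sets of muscle isoforms, 4 were lower in culture and 0 higher. Of the 14 probe sets of other isoforms, 8 were higher and 0 lower. Probe sets of 1 gene are not independent, and these 8 came from Slc2a1, Pfkl, Ldha, Hk1 and Pfkp. With each gene read from its brightest probe set, 3 of the 4 muscle isoforms were lower and 0 higher. Of the 6 other genes, 3 were higher (Slc2a1, Pfkl and Ldha) and 0 lower, while Slc2a3, Hk1 and Pfkp were not called. At an unadjusted p under 0.05 in limma, 4 probe sets of muscle isoforms were lower and 0 higher. Of the others, 10 were higher and 0 lower, with 48.8% of all probe sets past that threshold. A probe set was called at an adjusted p under 0.05 in limma, fitted over all 22626 probe sets with a mean per group and cultures set against the equally weighted mean of both skin groups. By that rule 42.5% of all probe sets differed, 24.3% higher and 18.3% lower in culture. Differences are therefore common on these arrays, and the call alone says little about the family. The median difference was -0.76 on the log2 scale for the muscle isoform probe sets and 0.52 for the others, against 0.03 over all probe sets. The arrays of culture and skin did not overlap for 6 member probe sets that were higher and 3 that were lower in culture, against 25.8% of all probe sets in either direction. Against newborn skin alone, 8 member probe sets were higher and 3 lower, with 32.3% of all probe sets called (17.6% higher, 14.7% lower). Without newborn replicate 1 or 2, 4 members were higher, and over all probe sets 2402 and 2552 were higher. Against 30-day skin alone, 7 were higher and 4 lower, with 43.3% of all called (25.1% higher, 18.2% lower). Both comparisons use the same cultures. The counts depended on the scale. Setting each array to the mean of 20 genes of epithelial junctions moved the median of all probe sets to -0.39. Calls over all probe sets then became 1961 higher and 14289 lower, against 5491 higher and 4136 lower as deposited. On that scale 6 member probe sets were higher and 8 were lower. Slc2a1, Pfkl and Ldha still counted among the higher, and Eno3, Pfkm and Slc2a4 among the lower.

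**Figure D1:**
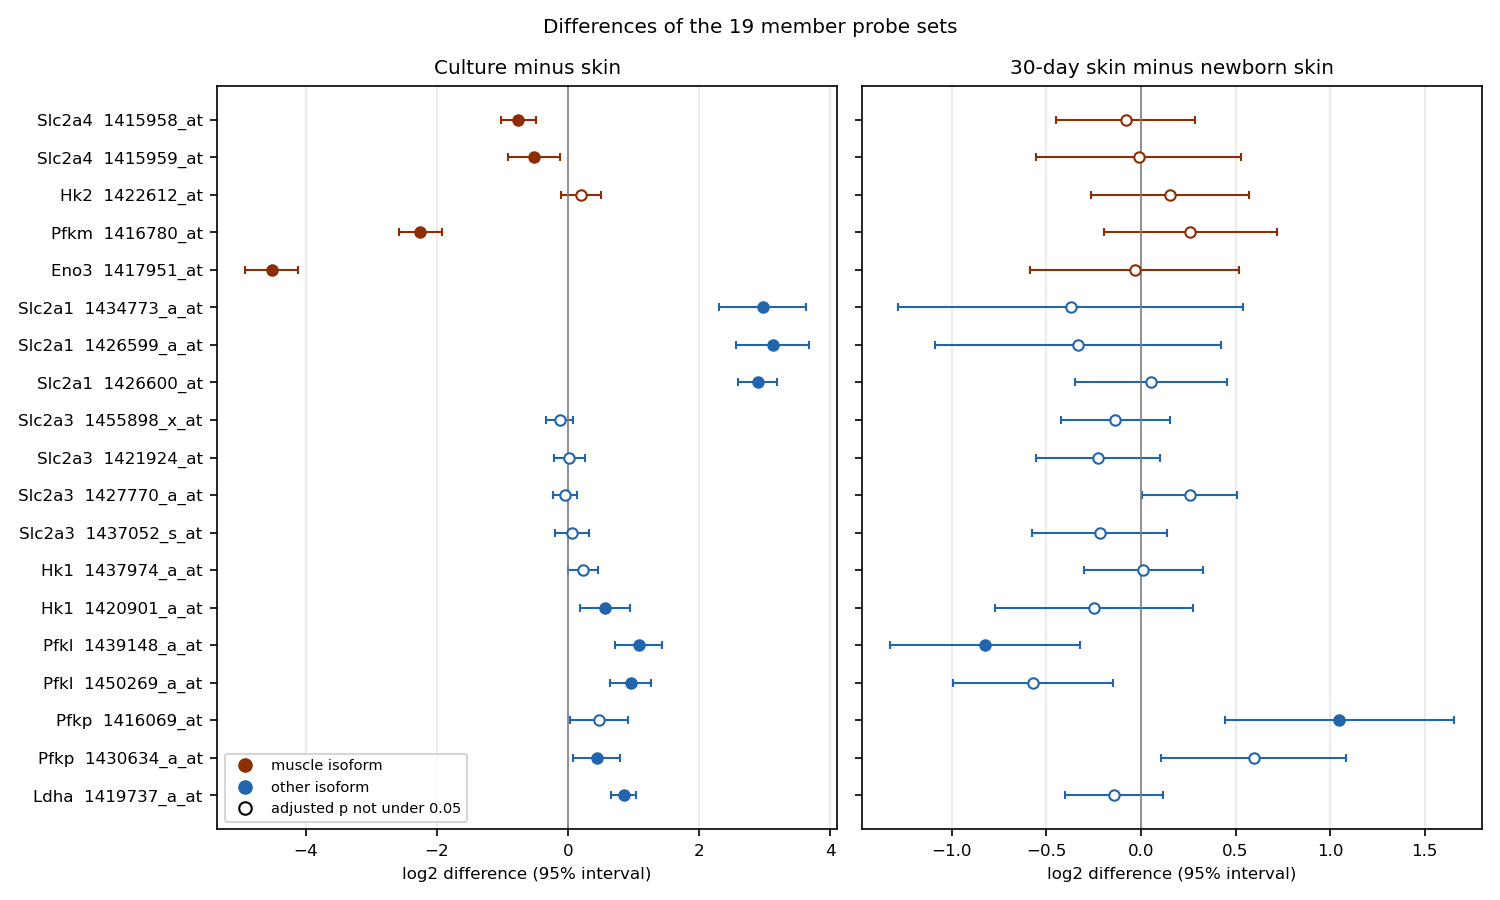
Log2 differences of the 19 probe sets with 95% intervals, for culture minus skin on the left and 30-day skin minus newborn skin on the right. Brown marks muscle isoforms, blue marks the others, and open symbols missed an adjusted p of 0.05. In culture minus skin, Eno3 and Pfkm lie far below 0 and the 3 Slc2a1 probe sets near 3. In 30-day minus newborn skin, filled symbols appear for 1 Pfkl and 1 Pfkp probe set.

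Among the transporters, Slc2a1 was the gene with the largest rise in culture and Slc2a4 fell. Slc2a1 (probe set 1434773_a_at, the brightest of 3) had log2 levels of 9.54, 9.49, 10.40, 10.37 and 10.27 in the cultures. It had 7.91, 7.04, 7.07, 5.95 and 6.32 in 30-day skin, and 6.96 and 7.50 in newborn skin. Every culture lay above every skin array, and the arrays of 30-day skin were widely spread, with replicate 1 highest. The difference of culture minus skin was 2.97 ± 0.31 (SE, n = 5 cultures, 5 and 2 skin arrays), a 7.85-fold higher level in culture, with an adjusted p of 3.13e-06 in limma. The other probe sets of Slc2a1 gave 3.12 ± 0.26 and 2.89 ± 0.14 on the log2 scale. Against newborn skin alone, which shares the age at harvest with the cultures, the difference was 2.79 ± 0.42 (adjusted p 0.000165). Against 30-day skin it was 3.16 ± 0.32 (adjusted p 2.49e-06).

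Slc2a4 (1415958_at) had log2 levels of 5.84, 5.94, 6.22, 6.12 and 6.15 in the cultures, 7.09, 6.80, 6.995, 6.42 and 6.56 in 30-day skin, and 6.89 and 6.81 in newborn skin. The cultures lay below all skin arrays, close to the array medians of 5.86 to 6.01. Culture minus skin was -0.76 ± 0.12 on the log2 scale, a 1.69-fold lower level in culture (adjusted p 0.000201). Its other probe set, 1415959_at, gave -0.52 ± 0.18 (adjusted p 0.036). That call was met under 10 of 21 alternatives, whose adjusted p ran from 7.46e-05 to 0.203. It was lost without culture replicate 1, 3 or 4, 30-day replicate 2, 3, 4 or 5, or newborn replicate 2. Replicate 1 of 30-day skin read 5.26 on this probe set, while the rest of that group read 6.21 to 6.45. Without that array the difference was -0.62 (adjusted p 0.000191).

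Slc2a3, the high-affinity transporter GLUT3 of neurons, was low on these arrays. Its 4 probe sets read between 4.22 and 5.09 in all 12 arrays, below every array median. Culture minus skin ran from -0.13 to 0.06 over the 4 probe sets, and none was called in limma, nor had any an unadjusted p under 0.05. Set to the genes of epithelial junctions, the differences ran from -0.55 to -0.36 and all 4 were called lower, which is close to the shift of all probe sets on that scale. At such a level RMA values carry no detection call, so presence of the transcript was not tested.

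The hexokinases differed less than the transporters. Hk2, the inducible isoform of muscle, fat and many tumours, had log2 levels of 7.69, 7.83, 8.29, 8.47 and 8.42 in the cultures. It had 8.07, 8.13, 8.05, 7.81 and 8.02 in 30-day skin, and 7.73 and 7.99 in newborn skin. The cultures fell on both sides of the skin arrays, with the mixed strain at the low end and FVB at the high end. The fitted difference of culture minus skin was 0.20 ± 0.14 on the log2 scale, with a 95% interval of -0.10 to 0.51 and an adjusted p of 0.286. Hk2 is thus the 1 muscle isoform of the 4 with no call against skin, and the interval leaves room for a modest change either way. Against newborn skin alone the difference was 0.28 ± 0.19 (adjusted p 0.32 in limma). With strain as a covariate it was 0.53, higher in culture (adjusted p 0.0038). That was the 1 of 22 alternatives that called it, and the adjusted p ran up to 0.777.

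Hk1, the hexokinase of most tissues and the form that red cells and brain rely on, had 2 probe sets. On the brighter one, 1437974_a_at, the cultures read 7.57, 7.97, 7.55, 7.90 and 7.79, 30-day skin 7.82, 7.35, 7.61, 7.40 and 7.49, and newborn skin 7.52 and 7.52. For culture minus skin the difference was 0.23 ± 0.11 on the log2 scale and missed the threshold (adjusted p 0.0993). Without 30-day replicate 1 it was 0.27 (adjusted p 0.0375), and over all 22 alternatives the adjusted p ran from 0.0321 to 0.298. The other, 1420901_a_at, gave 0.56 ± 0.18 (adjusted p 0.0196), and its groups overlapped. Replicate 1 of 30-day skin was again the lowest array on it, at 5.50 against 6.40 to 6.55 in its group, and without it the difference was 0.47 (adjusted p 0.00302). The call was lost under 4 of 21 alternatives, whose adjusted p ran from 0.00302 to 0.394, among them leaving out culture replicate 5 (0.0528) or newborn replicate 1 (0.11).

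Phosphofructokinase showed opposite movements of its muscle and liver subunits. Pfkm, the muscle subunit (1416780_at), had log2 levels of 6.88, 6.87, 6.52, 6.50 and 6.84 in the cultures, 9.13, 9.46, 9.47, 8.69 and 8.78 in 30-day skin, and 8.70 and 8.99 in newborn skin. The highest culture lay far below the lowest skin array. Culture minus skin was -2.25 ± 0.15 on the log2 scale, a 4.76-fold lower level in culture (adjusted p 4.97e-08). Pfkl, the liver subunit (1439148_a_at), had levels of 8.42, 8.74, 8.61, 9.12 and 8.94 in the cultures, 7.11, 7.68, 7.71, 6.94 and 6.95 in 30-day skin, and 8.06 and 8.14 in newborn skin. Its groups were separate and in the order culture, newborn skin, 30-day skin. The fitted difference of culture minus skin was 1.08 ± 0.17 on the log2 scale, 2.11-fold higher in culture (adjusted p 0.000142), and 0.96 ± 0.14 on its other probe set.

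The rise of Pfkl was larger against 30-day skin, at 1.49 ± 0.18 (adjusted p 1.06e-05), than against newborn skin, at 0.67 ± 0.23 (adjusted p 0.0416). The difference between those values is the change of Pfkl within skin described below. The call against newborn skin was met under 13 of 22 alternatives, whose adjusted p ran from 0.0201 to 0.867, and was lost without either newborn array or without culture replicate 2, 4 or 5. Pfkp, the platelet subunit, gave no single answer. Its brighter probe set, 1416069_at, read 7.21, 7.17, 8.23, 8.17 and 8.23 in the cultures, 8.02, 7.80, 8.08, 7.66 and 7.76 in 30-day skin, and 6.78 and 6.85 in newborn skin. The cultures lay above newborn skin, and around 30-day skin by strain. For culture minus skin the difference was 0.47 ± 0.21 on the log2 scale (adjusted p 0.0851), with 0.99 ± 0.28 against newborn skin (adjusted p 0.0143) and -0.06 ± 0.21 against 30-day skin (adjusted p 0.856). The difference from skin overall was called without culture replicate 1 (0.0189) or 2 (0.0153), within a range of adjusted p from 0.00289 to 0.865 over alternatives. The call against newborn skin was lost without either newborn array (0.104 and 0.0799), within a range from 1.29e-06 to 0.261. With strain as a covariate the difference from 30-day skin became -0.67 (adjusted p 0.000405), the 1 of 22 alternatives that called it (adjusted p up to 0.99). The dimmer probe set gave 0.44 ± 0.17 against skin (adjusted p 0.0471), a call met under 11 of 21 alternatives and lost without culture replicate 1, 2, 3 or 5, 30-day replicate 5 or either newborn array.

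Eno3, the enolase subunit of striated muscle, had the largest difference among the 10 genes. Its log2 levels (1417951_at) were 5.73, 5.77, 5.21, 5.03 and 5.45 in the cultures, 10.19, 10.29, 10.23, 9.37 and 9.61 in 30-day skin, and 9.95 and 9.99 in newborn skin. All 5 cultures lay below the array medians and all 7 skin arrays far above them. Culture minus skin was -4.52 ± 0.19 on the log2 scale, a fitted 22.9-fold lower level in culture (adjusted p 3.14e-10). Since RMA values carry no detection call, presence of Eno3 in culture was not tested, and a fold against so low a level is best read as a lower bound. The differences against 30-day skin, -4.50 ± 0.19, and against newborn skin, -4.54 ± 0.26, were alike in size. No probe set carries the ubiquitous enolase Eno1 as its only symbol here, so the pair could not be compared.

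Ldha, the subunit that favours lactate formation, lay far above the median in every array. It had log2 levels of 12.0045, 11.99, 11.81, 11.71 and 11.72 in the cultures, 11.07, 10.96, 11.02, 10.78 and 10.79 in 30-day skin, and 11.03 and 11.10 in newborn skin. Culture and skin did not overlap. The fitted difference of culture minus skin was 0.85 ± 0.09 on the log2 scale, 1.81-fold higher in culture (adjusted p 2.87e-06). Against newborn skin it was 0.78 ± 0.12 (adjusted p 0.000185), and 0.16 (adjusted p 0.403) on the scale of epithelial junction genes, the 1 of 22 alternatives that ended this call (adjusted p from 1.52e-05 to 0.403).

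**Figure D2:**
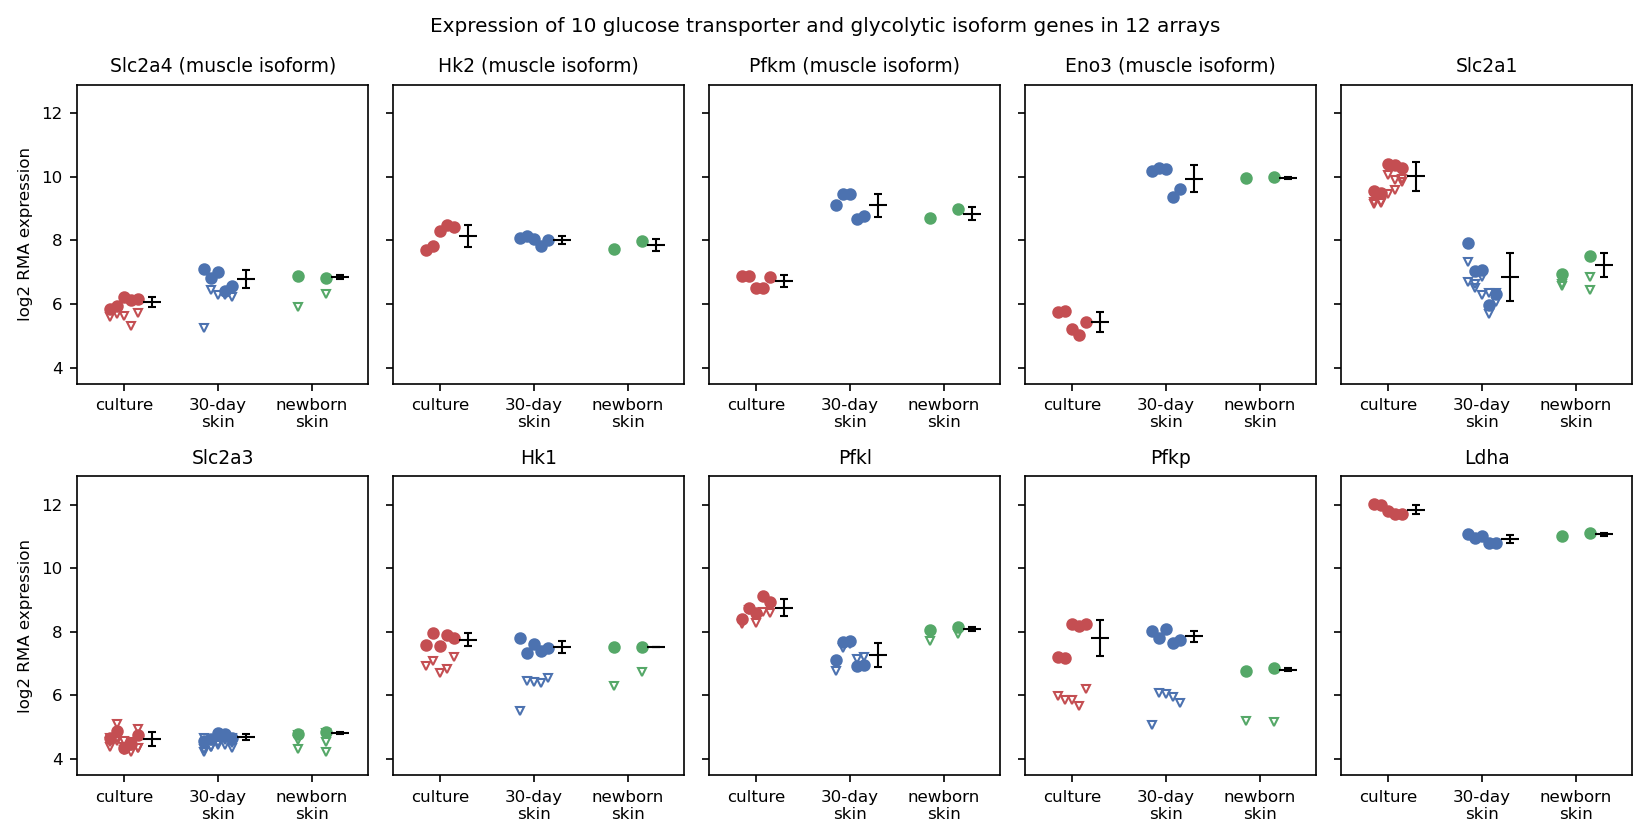
Log2 expression of each gene in the 5 cultures (red), 5 arrays of 30-day skin (blue) and 2 arrays of newborn skin (green). Filled circles are the brightest probe set of a gene, triangles its other probe sets, and black bars the mean ± SD of the brightest. Eno3 and Pfkm drop in culture, Slc2a1 rises, Ldha lies above and Slc2a3 below the array medians in all groups.

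The balance between isoforms of 1 family was taken as the difference of log2 values of a pair within an array. A single balance has no meaning as a ratio of transcripts, because probe sets differ in brightness, but its change between groups is free of the scale of the array. The balance of Slc2a4 minus Slc2a1 averaged -3.96 ± 0.31 in culture, -0.08 ± 0.49 in 30-day skin and -0.38 ± 0.44 in newborn skin (SD, n = 5, 5 and 2). The balance of Pfkm minus Pfkl averaged -2.04 ± 0.39 in culture, 1.83 ± 0.11 in 30-day skin and 0.74 ± 0.14 in newborn skin. The cultures did not overlap with skin in either pair. Relative to skin, the balance moved away from the muscle form, by -3.73 on the log2 scale for the transporters and by -3.33 for Pfkm minus Pfkl. It moved by -2.72 for Pfkm minus Pfkp. The balance of Hk2 and Hk1 changed by -0.03 and its arrays overlapped between groups. These are descriptions with no test, since the genes were chosen with their patterns known.

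**Figure D3:**
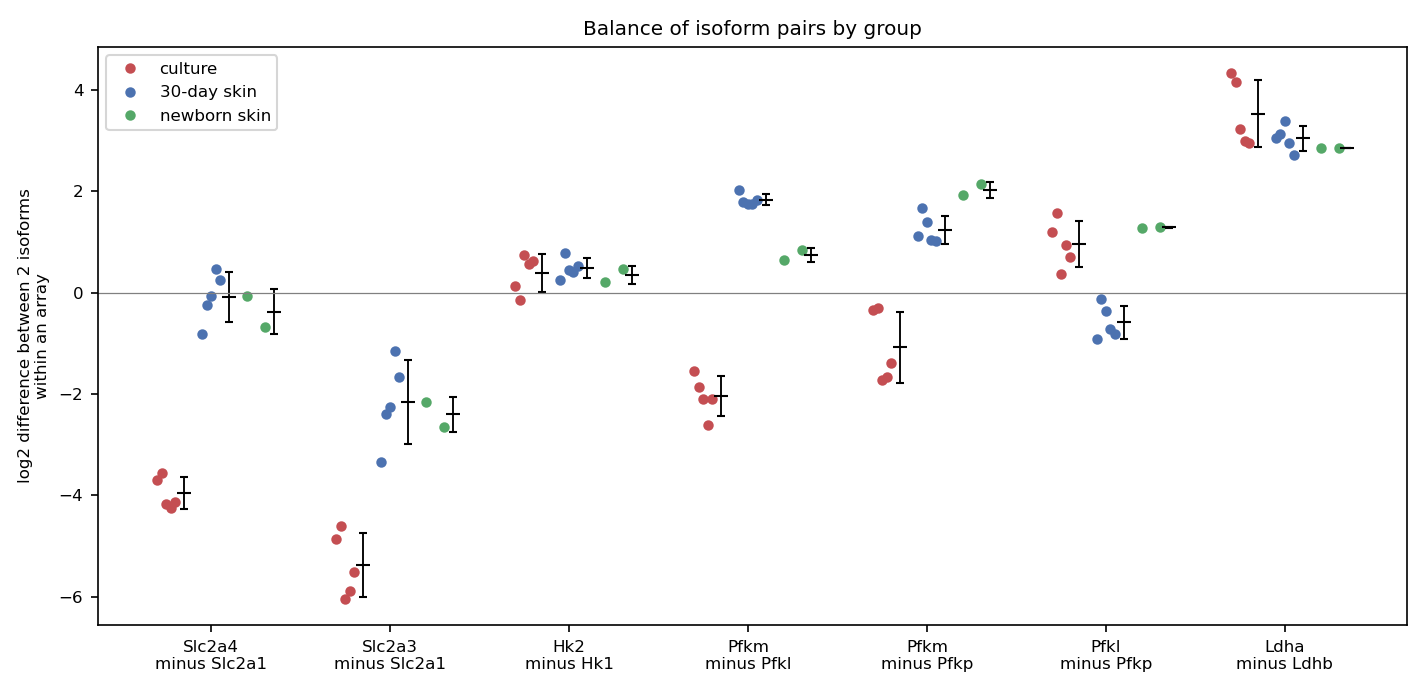
Difference of log2 values between the isoforms of 7 pairs within each array (dots), by group, with the mean ± SD in black. Slc2a4 minus Slc2a1, Slc2a3 minus Slc2a1 and both Pfkm pairs are lower in all cultures than in all skin arrays, while Hk2 minus Hk1 overlaps between the groups. Pfkl minus Pfkp is above 0 in culture and newborn skin and below 0 in 30-day skin.

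Markers of other cells moved with these genes. Of 20 markers of skeletal muscle, 20 were lower in culture, and their mean log2 level was 4.89 to 5.11 in the cultures, 9.21 to 10.02 in 30-day skin, and 8.61 and 8.65 in newborn skin. In every culture, 15 of the 20 lay below the array median. Of 12 adipocyte markers, 12 were lower in culture, with means of 5.06 to 5.25 in the cultures, 8.32 to 8.89 in 30-day skin, and 8.87 and 8.96 in newborn skin. Endothelial markers fell in 10 of 10 cases and macrophage markers in 9 of 10. Basal keratinocyte markers, among them keratins and integrins of the epidermal base, rose in 6 of 8, with means of 10.2 to 10.7 in the cultures, 8.75 to 9.04 in 30-day skin, and 8.96 and 9.14 in newborn skin. In these bulk samples, fewer cells of a type and less RNA per cell cannot be told apart, and the part of cell makeup in the differences of Eno3, Pfkm and Slc2a4 was not tested. RNA quality also moved with 1 array: in replicate 1 of 30-day skin the 3' actin control lay 1.74 above the 5' one, where the rest of that group had 0.67 to 0.82. Without that array, 9 member probe sets were higher and 4 lower in culture than in skin. Of all 22626 probe sets, 5666 were then higher and 4251 lower.

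The genes whose levels ran most closely with Eno3 over the 12 arrays were Ogn (Pearson r 0.998), Pdlim3 (0.997), a gene of the muscle Z-line, and Acta1 (0.997), skeletal alpha-actin. For Pfkm they were Pde4dip (0.997), Pgam2 (0.993), the muscle phosphoglycerate mutase, and Pygm (0.993), the muscle glycogen phosphorylase. For Ldha they were Cdk5rap1 (0.992), F3 (0.992) and Pgk1 (0.991), the phosphoglycerate kinase of glycolysis. For Slc2a1 they were Exoc4 (0.992), Cdipt (0.986) and Rnmt (0.985). The other 2 muscle isoforms had different neighbours. For Slc2a4 they were Btbd1 (0.976), Cdkn2c (0.969) and P2ry6 (0.969). For Hk2 they were Katna1 (0.933), Ifrd1 (0.930) and Efr3a (0.9275). The closest gene was Clta (0.986) for Pfkl, Ccdc88c (0.967) for Pfkp, Ubtd1 (0.907) for Slc2a3 and Mcf2 (0.851) for Hk1. These correlations describe 12 arrays that fall into separate groups. For Eno3, Pfkm, Ldha and Slc2a1, most of each value is the gap between culture and skin.

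Between 30-day and newborn skin, 1 member probe set was higher and 1 was lower, against 12.1% of all probe sets called (4.75% higher, 7.36% lower), so the share of called members was near that of all probe sets. Both were phosphofructokinases. Pfkp (1416069_at), with the levels given above, was 1.05 ± 0.28 higher on the log2 scale in 30-day skin, 2.07-fold, with an adjusted p of 0.0267. Pfkl (1439148_a_at) differed by -0.82 ± 0.23, 1.77-fold lower in 30-day skin, with an adjusted p of 0.0342. The other probe sets had the same sign without a call, at 0.60 ± 0.23 for Pfkp (adjusted p 0.114) and -0.57 ± 0.20 for Pfkl (adjusted p 0.0794). The dimmer Pfkp probe set reached 0.77 (adjusted p 0.00254, the lowest of a range up to 0.706) without 30-day replicate 1. The other Pfkl probe set reached -0.67 (adjusted p 0.0378, in a range from 0.000917 to 0.464) without 30-day replicate 3. The balance of Pfkl minus Pfkp averaged -0.59 ± 0.33 in 30-day skin and 1.28 ± 0.01 in newborn skin (SD, n = 5 and 2), with no overlap. Of all probe sets, 32.2% had no overlap between these groups. The 2 newborn arrays are a close pair that could be 1 sample, so their small SD says little about spread.

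Both calls depended on single arrays. The Pfkp call was met under 16 of 22 alternatives (adjusted p from 5.96e-06 to 0.248) and was lost without either newborn array (0.175 and 0.169) or without 30-day replicate 3 (0.0516). The Pfkl call was met under 15 of 22 (adjusted p from 0.00128 to 0.419) and was lost without either newborn array (0.159 and 0.249) or without 30-day replicate 4 (0.0665) or 5 (0.0676). With strain as a covariate, which carries the strain difference of the cultures over to skin, Pfkp became 2.07 (adjusted p 5.96e-06) and Pfkl -0.51 (adjusted p 0.419). On the same fit Hk2 became 0.79 higher in 30-day skin (adjusted p 0.00964), against 0.15 ± 0.19 (adjusted p 0.702) without it, and its adjusted p ran from 0.00964 to 0.994 over alternatives. Age and strain coincide in skin, so none of these values separates them.

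Of the 20 muscle markers, 9 were higher and 1 was lower in 30-day than in newborn skin. Of the 5 muscle isoform probe sets, 0 were called in limma and 0 had an unadjusted p under 0.05, against 24.9% of all probe sets, and under the alternatives run only Hk2 with the strain covariate was called. Whether the isoforms and the markers differ in their change was not tested. Eno3 differed by -0.03 ± 0.26 (95% interval -0.58 to 0.52), Pfkm by 0.26 ± 0.21 (-0.19 to 0.72) and Slc2a4 by -0.08 ± 0.17 (-0.45 to 0.29) on the log2 scale. Slc2a1 (1434773_a_at) differed by -0.37 ± 0.42 (-1.28 to 0.54) and Ldha by -0.14 ± 0.12 (-0.40 to 0.12), neither of them called. In skin of both ages, 30-day replicates 4 and 5 had the lowest Eno3, at 9.37 and 9.61, and within 30-day skin they also had the lowest muscle marker means, at 9.21 and 9.27 against 9.93 to 10.02.

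Between cultures of the 2 strains, few members were called. Mixed minus FVB cultures gave 0 member probe sets higher and 2 lower in limma, against 9.22% of all probe sets called (3.91% higher, 5.3% lower), so the share of called members was near that of all probe sets. At an unadjusted p under 0.05, 3 were higher and 4 lower, against 23.9% of all probe sets. Pfkp (1416069_at), at 7.21 and 7.17 in mixed cultures and 8.23, 8.17 and 8.23 in FVB cultures, differed by -1.02 ± 0.13 on the log2 scale, lower in mixed cultures (adjusted p 0.000328), and the call was met under all 20 alternatives run. Its other probe set, 1430634_a_at, read 5.9975 and 5.87 in mixed cultures and 5.87, 5.67 and 6.20 in FVB cultures, a difference of 0.02 ± 0.25 (adjusted p 0.973). The probe sets of Pfkp therefore gave different answers on strain, and the dimmer one read close to the array medians of 5.86 to 6.01. Hk2 differed by -0.63 ± 0.12, lower in mixed cultures (adjusted p 0.00655), a call met under 18 of 20 alternatives (adjusted p from 0.000986 to 0.133) and lost without culture replicate 1 (0.111) and with the close arrays averaged, which leaves 1 mixed culture (0.133). The 3 Slc2a1 probe sets had lower values in both mixed cultures than in all FVB cultures, with differences of -0.83 ± 0.40, -0.75 ± 0.33 and -0.46 ± 0.16, without a call (adjusted p 0.229, 0.18 and 0.0941, the middle one 0.0135 without 30-day replicate 1, in a range from 0.0127 to 0.578). Such separation of 2 from 3 arrays was common, at 46.0% of all probe sets.

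Among other genes of glucose handling, the muscle and broader forms of phosphoglycerate mutase differed in opposite directions, whereas those of glycogen phosphorylase were all called lower in culture than in skin overall. Of 13 other glycolytic enzymes, 6 were higher and 3 lower in culture than in skin, with a median difference of 0.27 on the log2 scale. Over all 12393 genes, with 1 probe set each, 46.2% were called. Pgam2, the muscle phosphoglycerate mutase, fell by 3.20 ± 0.16 on the log2 scale, to 5.25 to 6.05 in the cultures, near the array medians. Pgam1, the broader form, rose by 1.36 ± 0.10, 2.57-fold, with levels of 10.3 to 10.6 in the cultures, 8.89 to 9.39 in 30-day skin, and 9.20 and 9.03 in newborn skin. Pkm, pyruvate kinase of muscle and proliferating cells, whose splice forms these values do not separate, rose by 1.47 ± 0.17. Pgk1 rose by 1.22 ± 0.09. Aldoa, the aldolase of muscle and most other cells, fell by 0.38 ± 0.11 in culture against skin overall (adjusted p 0.0139), by 0.68 ± 0.12 against 30-day skin alone. Against newborn skin it differed by -0.08 ± 0.15 (adjusted p 0.769), with overlap. Aldoa was 0.60 ± 0.15 higher in 30-day than in newborn skin (adjusted p 0.0205). Ldhb, the partner subunit of Ldha, was not called against skin, at 0.27 ± 0.19 (adjusted p 0.302), and differed by -0.93 ± 0.13 between mixed and FVB cultures, lower in mixed (adjusted p 0.000925).

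Transporter genes outside the 10 differed less than Slc2a1 and the brighter Slc2a4 probe set did, in the size of the fitted value and with no test of that difference. Of 6 others, 3 were higher and 2 lower in culture, with differences of -0.39 to 0.52 on the log2 scale. These 6 were dim, with mean levels of 5.42 in culture, 5.31 in 30-day skin and 5.38 in newborn skin. In every array of these groups, 3, 4 and 5 of them lay below the array median, which limits the comparison of sizes. Slc2a5, the fructose transporter, had the largest of them, at 0.52 ± 0.11. Of 13 genes that steer glycolysis or export lactate, 5 were higher and 5 lower in culture. Those that fell were Pdk4, at -2.80 ± 0.28, and Pdk2, at -1.15 ± 0.10, kinases that hold back pyruvate dehydrogenase, Mpc1, the mitochondrial pyruvate carrier, at -1.43 ± 0.12, the monocarboxylate transporter Slc16a7, at -1.85 ± 0.17, and Txnip, an inhibitor of glucose uptake, at -1.78 ± 0.15. Those that rose included Slc16a3 and Slc16a1, which carry lactate across the cell membrane, at 0.64 ± 0.16 and 0.54 ± 0.18, and Bsg, their chaperone, at 0.50 ± 0.16. Of 18 glycogen genes, 2 were higher and 9 lower in culture. Pygm fell by 2.98 ± 0.20, Ppp1r3c, a glycogen-targeting subunit of protein phosphatase, by 3.06 ± 0.20 and Pygl, the liver phosphorylase, by 1.85 ± 0.14. Pygb, the brain phosphorylase of broader use, fell by 0.35 ± 0.10 (adjusted p 0.0111), with -0.63 ± 0.14 against newborn skin (adjusted p 0.00273) and -0.08 ± 0.10 against 30-day skin (adjusted p 0.601). Gbe1, the branching enzyme, rose by 0.96 ± 0.12.

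Slc2a1 and Ldha are also textbook targets of hypoxia-inducible factors. Of 13 other genes known as such targets, 4 were higher and 4 lower in culture than in skin, with a median difference of -0.02 on the log2 scale. Ddit4 rose by 1.57 ± 0.18, Adm by 1.07 ± 0.22, Ndrg1 by 0.67 ± 0.13 and Kdm3a by 0.66 ± 0.12. Egln3 fell by 2.08 ± 0.12, P4ha2 by 0.93 ± 0.23 and Bnip3 by 0.78 ± 0.17. The list therefore had no single direction. Pgk1, Pgam1, Pkm and Slc16a3, which rose as given above, were not on it, and a part of hypoxia in these differences was not tested. P4ha1, a collagen prolyl hydroxylase, differed by -0.37 ± 0.15 and missed the threshold (adjusted p 0.0569).

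**Figure D4:**
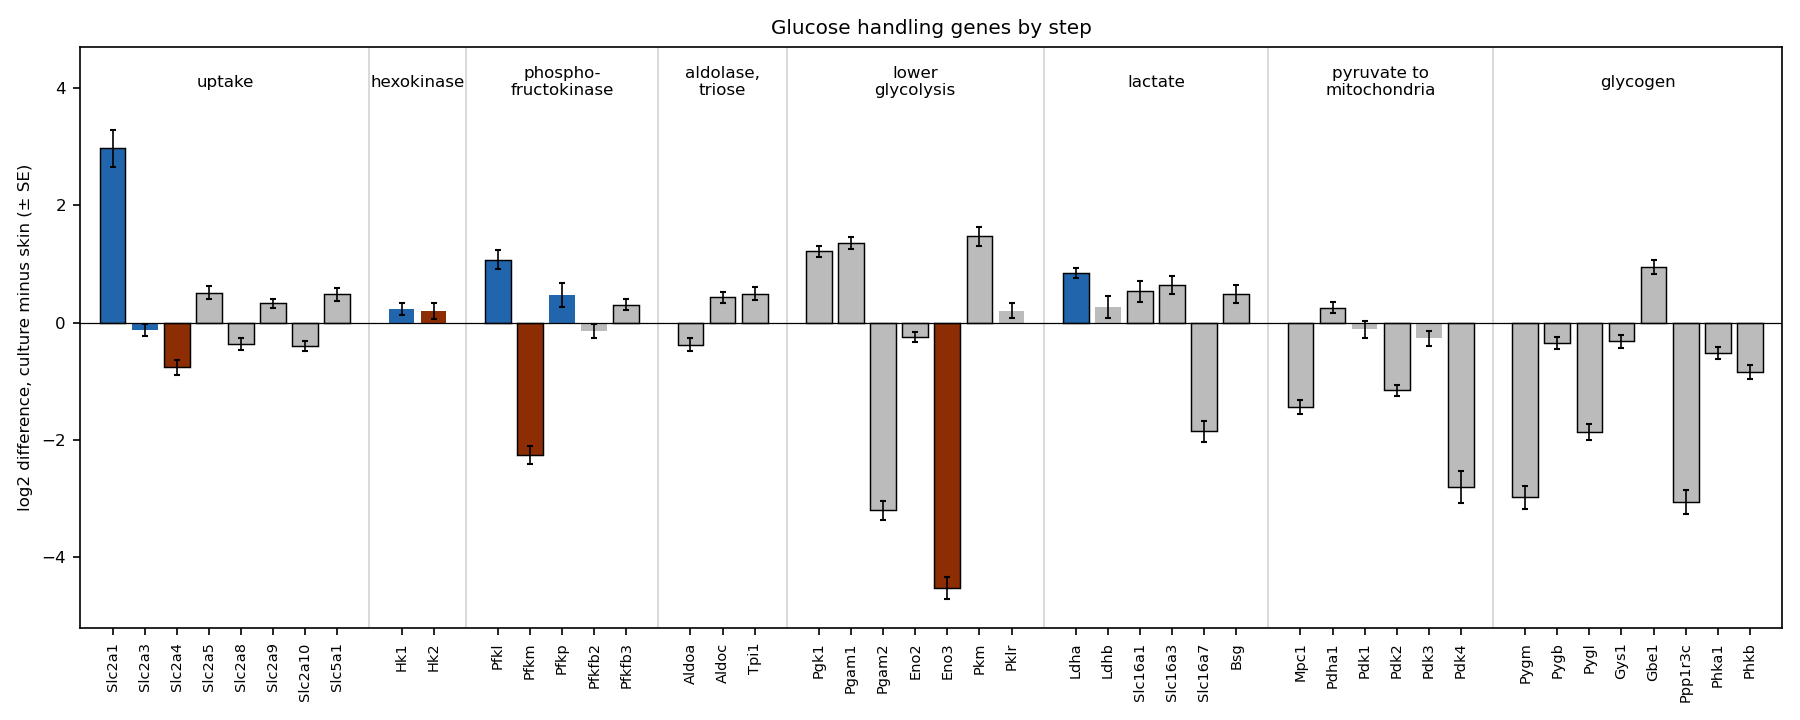
Log2 difference of culture minus skin (bars, ± SE) for genes of glucose uptake, glycolysis, lactate and pyruvate handling and glycogen, in the order of the pathway. Members are brown (muscle isoforms) or blue (others), other genes grey, and an outline marks an adjusted p under 0.05. Bars below -2 belong to Pfkm, Pgam2, Eno3, Pdk4, Pygm and Ppp1r3c, and the tallest bar above 0 is Slc2a1.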

How the data were processed

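The 12 Affymetrix arrays were analysed from the deposited log2 values, made by RMA per the submitters' processing notes, which corrects background, normalises by quantiles and summarises probes. The RMA version is not given in the sources used here. RMA gives no detection call, and the number of arrays limits the precision. Groups came from sample titles. Genes came from the platform annotation. The 10 members and all gene lists were chosen with earlier results of these data known.

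All 22626 probe sets other than 64 controls were fitted with limma 3.58.1 in R 4.3.3 (lmFit, eBayes, two-sided, Benjamini-Hochberg over all, threshold 0.05), with a mean per group. A fit with cultures split by strain gave mixed minus FVB. Errors of differences are SE, and of means SD. A gene is represented by its brightest probe set on average. Named genes were all members, per list and comparison up to 4 called genes with the largest difference and 1 that missed, and the 3 genes most correlated with a member. Pdk2, Bsg, Ndrg1, Kdm3a and Pygb were named after their values were seen. Values were handled with Python 3.11.15, pandas 2.3.3 and numpy 2.4.6, and drawn with matplotlib 3.10.9.

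Same-numbered arrays of different groups did not deviate together (correlations of -0.28 to 0.20), so numbers do not pair samples. Simulated arrays of 22626 probe sets carried known changes of 0.5, 1 and 2 on the log2 scale, in 66 or 67 probe sets each. The fit recovered 55.2%, 89.6% and 100% of them for culture minus skin. It recovered 28.4%, 74.6% and 98.5% for 30-day minus newborn skin, and 8.96%, 68.7% and 93.9% for mixed minus FVB cultures. In the real fit 42.5% of probe sets were called for culture minus skin, a far larger share than was changed here. Noise was drawn independently for each array, and for mixed minus FVB it included the spread between strains. These shares therefore do not give the recovery in the real fits. Alternatives covered centring, quantile normalisation, dim probe sets, 1 probe set per gene, variance model, array weights, strain, block, and each array left out. Averaging close arrays was added after seeing the data.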

Additional observations from a re-analysis of the deposited data

Results flagged for a closer look

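Replicate 1 of 30-day skin stood far below the other 4 arrays of its group on 2 of the 19 probe sets. On 1415959_at of Slc2a4 it read 5.26, against 6.21 to 6.45 in the others, a gap of 0.798 of the range of the group. On 1420901_a_at of Hk1 it read 5.50, against 6.40 to 6.55, a gap of 0.859 of the range. These were 2 of 52 groups of 5 examined against a limit of 0.71, which chance alone passes in about 1 in 20 groups. The brighter probe set of each gene did not pass it in that array, which there was the highest of its group instead. It read 7.09 for Slc2a4, against 6.42 to 6.995 in the others, and 7.82 for Hk1, against 7.35 to 7.61. The same array had the widest gap between 3' and 5' control probe sets, at 0.71 for Gapdh against 0.09 to 0.21 in the rest of its group. The part of RNA quality in these readings was not tested.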

How the results depend on the processing

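For culture minus skin, Eno3, Pfkm, the brighter Slc2a4 probe set, the 3 Slc2a1 probe sets, both Pfkl probe sets and Ldha kept their direction and call under every alternative run. Of the member results under alternatives, 1860 stayed on their side of the threshold, 79 lost a call, 45 gained one and 3 changed sign with a call. The sign changes were all Slc2a3 on the scale of epithelial junction genes, at -0.40 and -0.36 for culture minus skin and -0.54 for culture minus newborn skin. The cause of changes was not tested.

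That scale gave 1961 higher and 14289 lower probe sets for culture minus skin (8 members lower), 973 and 15816 against newborn skin (3 members higher, 8 lower), 3195 and 7750 against 30-day skin, 398 and 10029 for 30-day minus newborn skin (0 members higher, 7 lower), and 534 lower for mixed minus FVB. Taking 1 probe set per gene tested fewer features and gave 3054 higher for culture minus skin, 2223 against newborn skin, 3280 higher and 2709 lower against 30-day skin, and 394 higher for mixed minus FVB. Array weights gave 2243 higher and 2910 lower with age (2 and 2 members) and 2289 and 2673 with strain (2 and 5 members). The trended, robust variance gave 1 member higher in mixed cultures. The strain covariate gave 1047 lower and 2 members higher with age. Averaging close arrays left fewer samples and gave 1964 higher and 2057 lower against newborn skin (4 members higher), 155 and 276 with age (0 and 0 members), and 94 and 68 with strain (1 member lower). The mean of all probe sets moved the change with age to -0.56 for Pfkm minus Pfkp and -1.52 for Pfkl minus Pfkp.

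With the replicate number as a block, although the numbers do not pair samples, 5 members were higher against newborn skin, and age gave 691 higher and 1032 lower with 0 and 0 members (Pfkp 0.77, adjusted p 0.151, and Pfkl -0.86, adjusted p 0.0941). It changed no other count by over 1.5 times.

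With single arrays left out, calls ran from 2402 to 4322 higher against newborn skin (4 to 9 members), from 290 to 1440 higher and 548 to 1957 lower with age (0 to 2 members each way), and from 223 to 1509 higher and 202 to 1786 lower with strain (0 to 1 and 1 to 3 members). With 2 newborn arrays and 2 mixed cultures, a lone sample left was assumed to vary like the other groups.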

Other observations

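Gapdh, the glycolytic dehydrogenase between the aldolase and phosphoglycerate kinase steps, was read here only from array control probe sets, which stayed out of the fit. On its 3' control the cultures read 12.27 to 12.70 on the log2 scale, against 11.56 to 12.11 in 30-day skin and 11.81 and 11.79 in newborn skin. No array of culture overlapped with skin on that control. The probe set shared by Hk1 and other genes read 11.06 to 11.72 in the cultures, 10.97 to 11.78 in 30-day skin, and 11.57 and 11.33 in newborn skin, with overlap.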
